A study of Sus scrofa with 36 samples.

Results

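The neurotrophin genes measured here were 7 of the 31907 gene identifiers in each count file: the ligands BDNF and NTF3, the Trk receptors NTRK2 (TrkB) and NTRK3 (TrkC), the p75 receptor NGFR, the sorting receptor SORT1 (sortilin) and VGF, a secreted granin. They are a list of named genes, and each was found by its Ensembl pig identifier. Total RNA of cerebellum was sequenced from 36 term-born piglets of both sexes, which differed in birth weight (NBW, normal birth weight, or IUGR, intrauterine growth restricted) and in the fat of the formula they received (VEG, vegetable oil, or MILK, bovine milk fat), from 3 days of age and for 3 weeks. IUGR arose spontaneously in these commercial piglets, and litter is not in the labels. The study left out 3 samples of low RNA integrity without naming them. They were matched here to the libraries of VEG-NBW piglet 202, VEG-IUGR piglet 210 and MILK-NBW piglet 213 by how large a part of their reads was assigned to no gene. The tests used the other 33 libraries, which were 8 VEG-NBW (4 female, 4 male), 8 VEG-IUGR (4 female, 4 male), 8 MILK-NBW (3 female, 5 male) and 9 MILK-IUGR (5 female, 4 male).

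Neurotrophins are secreted growth factors that are made as longer precursors and cut by proprotein convertases and plasmin. Mature BDNF signals through the receptor tyrosine kinase TrkB and mature NTF3 (neurotrophin 3) through TrkC, whereas the uncut precursors bind p75 together with sortilin. In the developing cerebellum BDNF and NTF3 act on granule cells and Purkinje cells, granule neuron precursors carry p75, glia carry TrkB forms that lack the kinase domain, and VGF is a transcript that BDNF induces in neurons.

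The 33 libraries held between 15516541 and 23027502 counts on genes (median 18025540), with counts for 18635 to 19682 genes. A level is given below in CPM, the count of a gene scaled to a library of one common size after TMM normalisation. Genes that define cerebellar cell types were present, with median levels of 298 CPM for GABRA6, which marks mature granule neurons, 412 CPM for PCP2, which marks Purkinje cells, and 56.8 CPM for GDF10, which marks Bergmann glia. TH, which marks catecholamine neurons, had a median of 0. Summed markers of oligodendrocytes ranged from 8475 to 47824 CPM between piglets and those of choroid plexus from 4.18 to 1602 CPM. In tissue of mixed cells, fewer cells of a type and less RNA per cell cannot be told apart.

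All 7 genes passed the filter on low counts. Exon lengths were not used here, so levels are compared between piglets and not between genes. BDNF (ENSSSCG00000013333, Sscrofa11.1 chr2:32623668-32679293) had the fewest counts, 62 to 227 per library, and a mean level of 5.46 ± 1.80 CPM (SD, n = 33). NTF3 (ENSSSCG00000033544, chr5:65052608-65122645) stood at 16.2 ± 4.44 CPM over the same piglets. Both ligands varied more than the typical gene: their SD of log2 CPM within groups was 0.41 for BDNF and 0.44 for NTF3, against a median of 0.21 over the 15356 genes tested.

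Of the receptors, NTRK2 (ENSSSCG00000010959, chr10:30030050-30429938) had 149.5 ± 24.7 CPM and NTRK3 (ENSSSCG00000005106, chr1:191535262-191941675) 54.7 ± 7.29 CPM (SD, n = 33 each). NGFR (ENSSSCG00000017548, chr12:25699410-25720355) had 26.3 ± 6.17 CPM, and SORT1 (ENSSSCG00000006831, chr4:110721110-110791406) 189 ± 25.9 CPM. VGF (ENSSSCG00000039053, chr3:8888502-8891399) had 100.9 ± 24.5 CPM. The levels of NTRK3 and SORT1 were the steadiest of the 7, with within-group SDs of 0.20 and 0.21 on the log2 scale, close to the median gene. NGFR and VGF varied more, with SDs of 0.40 and 0.38. These positions are the RefSeq gene spans, introns included. A long noncoding RNA overlaps the span of NTRK2 (LOC110255666) and another that of SORT1 (LOC110260358), and since the strand setting of the counting was not given in the sources used here, reads of these pairs may not be separable.

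**Figure D1:**
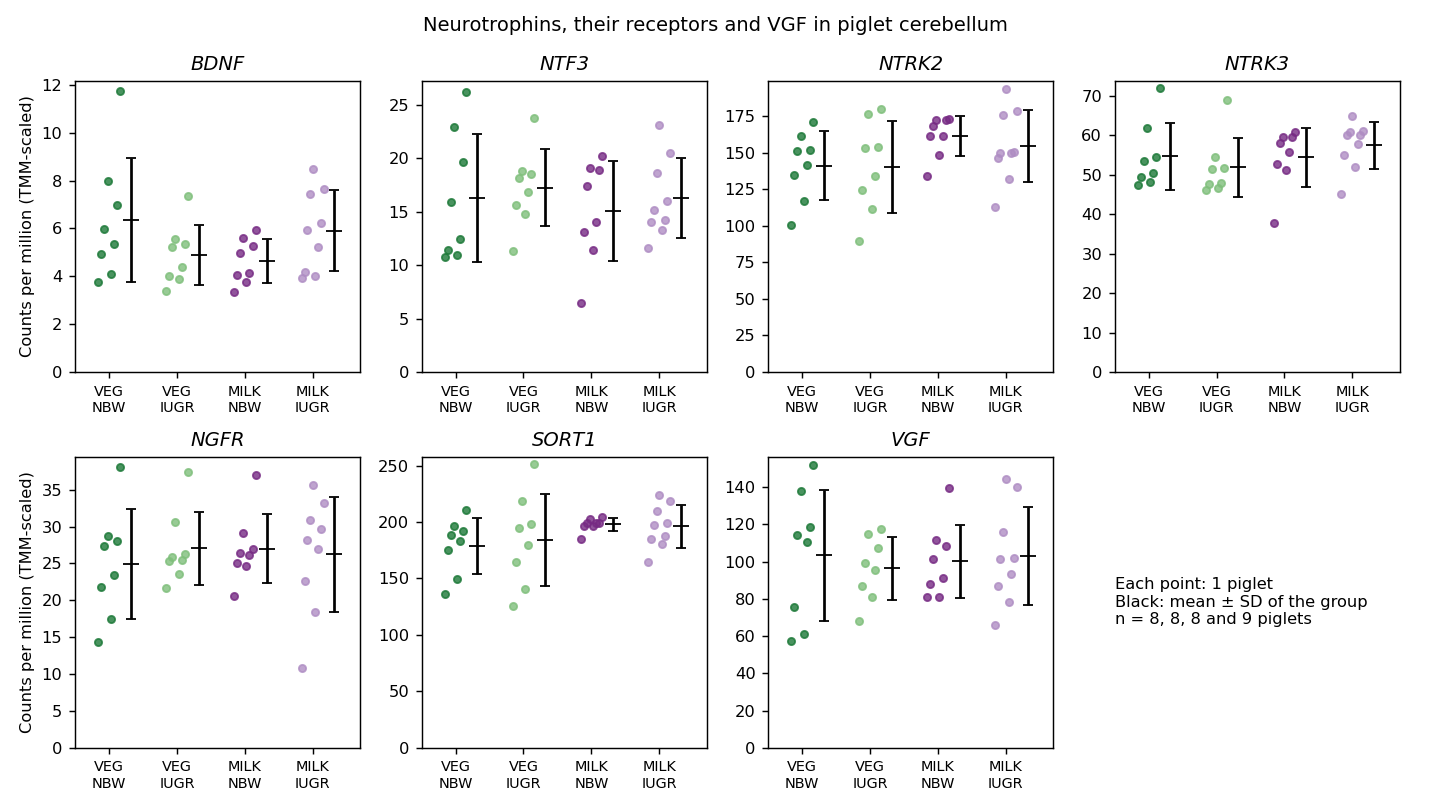
Levels of the 7 genes in CPM (linear axes from 0) for each of 33 piglets in the 4 groups of diet and birth weight, with the mean and SD of each group in black. The groups overlap for every gene; the highest BDNF value, 11.7 CPM, is a VEG-NBW piglet, and the SORT1 values of MILK-NBW lie within 185 to 205 CPM.

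BDNF was the gene whose groups lay farthest apart, in a crossed order. In VEG-NBW piglets its level was 3.75 CPM at the lowest, 5.68 at the median and 11.7 at the highest. In VEG-IUGR the lowest, median and highest were 3.37, 4.80 and 7.36 CPM. In MILK-NBW they were 3.35, 4.57 and 5.94 CPM, and in MILK-IUGR 3.94, 5.96 and 8.47 CPM. The means thus ran from VEG-NBW (6.35 ± 2.59 CPM, SD, n = 8) through MILK-IUGR (5.90 ± 1.69, n = 9) and VEG-IUGR (4.89 ± 1.26, n = 8) to MILK-NBW (4.64 ± 0.94, n = 8), and neighbours in that order differed by less than their SDs. The ranges of all 4 groups overlapped. Groups took up 15.1% of the variance of BDNF on the log2 scale, against 7.81% for the median gene.

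NTF3 levels lay on top of each other in the 4 groups. Its lowest, median and highest values were 10.8, 14.2 and 26.3 CPM in VEG-NBW and 11.4, 17.5 and 23.8 CPM in VEG-IUGR. In MILK-NBW they were 6.43, 15.7 and 20.2 CPM and in MILK-IUGR 11.6, 15.2 and 23.2 CPM. The largest and the smallest group means, 17.3 ± 3.61 CPM in VEG-IUGR and 15.1 ± 4.73 CPM in MILK-NBW (SD, n = 8 each), were closer than 1 SD of either group.

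NTRK2, which encodes the receptor for BDNF, had its higher levels in the MILK groups. Lowest, median and highest were 100.3, 146 and 171 CPM in VEG-NBW and 89.6, 144 and 180 CPM in VEG-IUGR. In MILK-NBW they were 134, 165 and 173 CPM, and in MILK-IUGR 113, 149.9 and 194 CPM. A MILK piglet had the higher NTRK2 level in 65.8% of all pairs of a MILK and a VEG piglet, so the diets overlapped widely. NTRK3, which encodes the receptor for NTF3, spanned 47.5 to 72.1 CPM in VEG-NBW (median 52.0), 46.3 to 69.1 in VEG-IUGR (median 49.7), 37.7 to 60.8 in MILK-NBW (median 57.0) and 45.2 to 65.0 in MILK-IUGR (median 60.1). Its groups also overlapped, with the lowest value of all in MILK-NBW and the highest in VEG-NBW.

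SORT1 values of MILK-NBW piglets lay close together. The 8 values were between 185 and 205 CPM (median 199), a coefficient of variation of 2.93%, where counting alone gives 1.69%. In VEG-IUGR, with 125 to 251 CPM (median 187), the coefficient of variation was 22.4%. The other groups lay between these, with 136 to 210 CPM (median 186) in VEG-NBW and 164 to 224 CPM (median 197) in MILK-IUGR. Whether the spreads differ was not tested. NGFR spanned 14.4 to 38.1 CPM in VEG-NBW (median 25.4), 21.7 to 37.5 in VEG-IUGR (median 25.7), 20.6 to 37.0 in MILK-NBW (median 26.3) and 10.8 to 35.6 in MILK-IUGR (median 28.1). VGF spanned 57.5 to 152 CPM in VEG-NBW (median 112), 68.2 to 118 in VEG-IUGR (median 97.4), 80.8 to 139.7 in MILK-NBW (median 96.4) and 66.2 to 145 in MILK-IUGR (median 101.3). Groups took up 0.65% of the variance of VGF and 3.10% of that of NGFR.

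Whether the fat source changed these transcripts was tested as the main effect of diet (17 MILK against 16 VEG piglets) with edgeR's quasi-likelihood test, birth weight and sex in the model. None of the 7 genes was called at an adjusted p under 0.05, nor was any of the 15356 genes tested (0%), and 0 of the 7 had an unadjusted p under 0.05, where 4.26% of all genes did. NTRK2 came nearest: it averaged 158 ± 20.1 CPM with MILK and 141 ± 26.8 CPM with VEG, a log2 difference of 0.16 (SE 0.08, 95% interval -0.0024 to 0.33, unadjusted p = 0.0517, adjusted p = 0.985 by edgeR). SORT1 had 197 ± 14.1 CPM with MILK and 181 ± 32.9 CPM with VEG, a log2 difference of 0.12 (SE 0.07, interval -0.02 to 0.26, unadjusted p = 0.0942, adjusted p = 0.985 by edgeR). For NTRK2 a two-sided permutation test of the log2 levels alone, unadjusted, gave p = 0.0447, and for SORT1 p = 0.0582. The summed oligodendrocyte markers had medians of 20139 CPM with MILK and 16415 CPM with VEG, and the 6 genes of that list had log2 differences above 0, with a median of 0.15 and 0 of 6 called. Medians were likewise higher with MILK for the markers of astrocytes and Bergmann glia (7704 against 6452 CPM), oligodendrocyte progenitors (425 against 373 CPM) and mural cells (205 against 178 CPM). The same held for the lists of interneurons, microglia, endothelium, choroid plexus, brainstem and deep nuclei, and Schwann cells. By single genes mural cells had a larger diet difference than oligodendrocytes, with 4 of 5 genes above 0 and a median of 0.49. Of these 5 genes 3 had an unadjusted p under 0.05 by edgeR, against 0 of 6 for oligodendrocytes, and 0 were called. All 5 oligodendrocyte progenitor genes (median 0.09) and all 4 endothelial genes (median 0.10) also lay above 0. Medians were lower with MILK for granule neurons, granule progenitors, Purkinje cells and meningeal fibroblasts. The fits of single genes did not always follow these medians of sums. All 5 Purkinje cell genes had diet differences above 0 (median 0.08, 0 called). In microglia 3 of 5 genes lay below 0 (median -0.0076), as did the 1 gene tested of the brainstem list (-0.0231). The part of these markers in the values of NTRK2 and SORT1 was not tested.

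For the other 5 genes the diet difference was smaller than 0.1 on the log2 scale in either direction: -0.06 for BDNF, -0.09 for NTF3, 0.07 for NTRK3, 0.04 for NGFR and 0.03 for VGF. The 95% intervals ran from -0.38 to 0.25 for BDNF and from -0.37 to 0.19 for NTF3. The interval for NTRK3, -0.06 to 0.21, was the narrowest of the 5. Over all 7 genes the median log2 difference was 0.04, beside -0.0035 over all genes.

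For birth weight all 7 differences were smaller than 0.1 on the log2 scale. Comparing 17 IUGR with 16 NBW piglets, edgeR called 0 of 7 (0% of all genes), and 0 of 7 had an unadjusted p under 0.05, against 2.19% of all genes. NTF3 had the largest difference, 0.09 on the log2 scale (SE 0.14, interval -0.19 to 0.38), with 16.8 ± 3.60 CPM in IUGR and 15.7 ± 5.26 CPM in NBW. The others were -0.02 for BDNF, -0.04 for NTRK2, 0.0046 for NTRK3, 0.03 for NGFR, 0.02 for SORT1 and -0.03 for VGF. The 6 oligodendrocyte markers had log2 differences above 0 for birth weight too, with a median of 0.16 and 0 of 6 called. The receptors NTRK3 and SORT1 had the tightest intervals, -0.13 to 0.14 and -0.12 to 0.16.

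Whether the diet difference depended on birth weight was tested as the interaction, the diet difference in IUGR minus that in NBW piglets. Again 0 of 7 genes passed (0% of all genes by edgeR), and 1 of 7, BDNF, had an unadjusted p under 0.05, as 6.09% of all genes did. BDNF had an interaction of 0.70 on the log2 scale (SE 0.29, interval 0.12 to 1.29, unadjusted p = 0.0193, adjusted p = 0.784 by edgeR). A permutation of the residuals of the model without the interaction gave p = 0.0391 for BDNF alone. Its value came from opposite differences in the 2 weight classes: the MILK minus VEG difference was -0.43 in NBW piglets (SE 0.21, unadjusted p = 0.0459, adjusted p = 0.738 by edgeR), and 0.27 in IUGR piglets (SE 0.20, unadjusted p = 0.176, adjusted p = 0.996). VEG-NBW piglet 229 had the highest BDNF of all, with 227 counts. Without it the interaction was 0.54 (unadjusted p = 0.0477) and the difference between MILK-NBW and VEG-NBW was -0.27 (unadjusted p = 0.174). With all 36 libraries, where VEG-IUGR piglet 210 holds 0 BDNF counts, the interaction was 0.87 (unadjusted p = 0.0599). The interactions of the other genes were 0.03 for NTF3, -0.05 for NTRK2, 0.15 for NTRK3, -0.17 for NGFR, -0.05 for SORT1 and 0.14 for VGF, each with an interval that held 0.

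**Figure D2:**
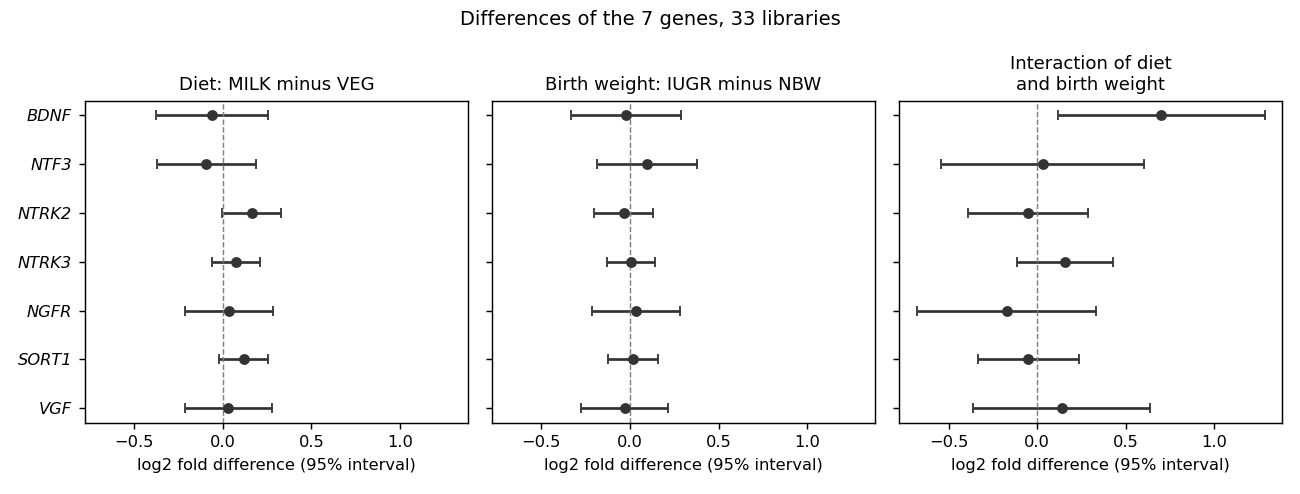
Log2 fold differences of the 7 genes with their 95% intervals (edgeR, 33 libraries) for diet, birth weight and their interaction; the dashed line marks no difference. BDNF is the single gene whose interval in any panel lies clear of 0, in the interaction (0.12 to 1.29), and its adjusted p was 0.784.

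Single pairs of groups gave 0 called members each. Within NBW piglets, MILK against VEG, 1 of 7 (BDNF, above) had an unadjusted p under 0.05, beside 6.67% of all genes, with 0% called by edgeR. NTRK2 had a log2 difference of 0.19, MILK-NBW minus VEG-NBW (SE 0.12, unadjusted p = 0.116, adjusted p = 0.767 by edgeR). SORT1 had one of 0.14 (SE 0.10, unadjusted p = 0.160, adjusted p = 0.804 by edgeR). The MILK-NBW and VEG-NBW piglets alone gave p = 0.0401 for SORT1 and p = 0.0572 for NTRK2 in the exact permutation test (two-sided, unadjusted). Within IUGR piglets, MILK against VEG, 0 of 7 had an unadjusted p under 0.05, beside 3.90% of all genes and 0% called. NTRK3 had the smallest p there, with a difference of 0.15 on the log2 scale (SE 0.09, unadjusted p = 0.119, adjusted p = 0.996 by edgeR), with 76.4% of pairs higher in the MILK-IUGR piglet.

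Within VEG piglets, IUGR against NBW, 0 of 7 had an unadjusted p under 0.05, beside 2.29% of all genes and 0% called. BDNF was the nearest, at -0.38 (SE 0.20, unadjusted p = 0.0716, adjusted p = 0.9996 by edgeR). Within MILK piglets 0 of 7 did, beside 6.24% of all genes and 0% called, and BDNF stood at 0.33 in the other direction (SE 0.20, unadjusted p = 0.114, adjusted p = 0.784 by edgeR). These comparisons share groups, so their values are not independent of each other. Between males and females 0 of 7 were called and 0 of 7 had an unadjusted p under 0.05, where 0.163% (25 genes) and 2.94% of all genes did, and the log2 differences, male minus female, lay between -0.10 (BDNF, SE 0.14) and 0.03 (SORT1, SE 0.07). DESeq2 and limma voom also called 0 of the 7 genes in each of the 8 comparisons. Of the 56 permutation tests of a single gene, 3 had p under 0.05, those of BDNF, NTRK2 and SORT1 given above, and none was adjusted for their number.

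The other genes of the pathway gave no call either. A list of 97 tested genes covered further ligands, sorting receptors and p75 partners, the enzymes that cut the precursors, Trk adaptors, downstream kinases and transcription factors, induced transcripts, and secretory partners of VGF. edgeR, DESeq2 and limma voom called 0 of 97 in each comparison. With edgeR an unadjusted p under 0.05 was found for diet in 2 of 97 (2.06%, beside 4.26% of all genes), for birth weight in 1 (1.03%, beside 2.19%), for the interaction in 8 (8.25%, beside 6.09%) and for sex in 3 (3.09%, beside 2.94%). The median log2 differences of the list were 0.0037, -0.0029, -0.03 and 0.0087. In the pairs of groups 6 had such a p within NBW piglets (6.19%, beside 6.67% of all genes), 6 within IUGR (6.19%, beside 3.90%), 3 within VEG (3.09%, beside 2.29%) and 5 within MILK (5.15%, beside 6.24%).

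Among the enzymes that cut the precursors, and their inhibitors, PCSK7, a proprotein convertase, averaged 74.9 CPM in VEG-NBW, 71.6 in VEG-IUGR, 65.1 in MILK-NBW and 63.5 in MILK-IUGR, so both MILK means lay below both VEG means. Its diet difference was -0.19 (SE 0.05, unadjusted p = 0.00127, adjusted p = 0.985 by edgeR), and the value was -0.20 within NBW and -0.17 within IUGR piglets. PCSK1, a convertase of the secretory granule, averaged 1.92 CPM in VEG-IUGR and 2.96 CPM in MILK-IUGR (log2 difference 0.60, SE 0.25, adjusted p = 0.996 by edgeR), and its log2 difference between males and females was -0.40 (SE 0.18). SERPINI1 (neuroserpin), an inhibitor of tissue plasminogen activator, averaged 35.1 CPM in VEG-NBW, 26.0 in VEG-IUGR, 30.3 in MILK-NBW and 33.03 in MILK-IUGR, with an interaction of 0.59 (SE 0.21, unadjusted p = 0.00755, adjusted p = 0.784 by edgeR). Within VEG piglets its difference was -0.44 (SE 0.15), not called.

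Among the genes downstream of Trk receptors, MAPK3 (ERK1) averaged 47.8 CPM in VEG-NBW, 56.2 in VEG-IUGR, 57.2 in MILK-NBW and 52.0 in MILK-IUGR. Its interaction was -0.36 (SE 0.12, unadjusted p = 0.00695, adjusted p = 0.784 by edgeR). MAP2K2 (MEK2), the kinase above it, had an interaction of -0.21 (SE 0.09) and MEF2C, a transcription factor of neuronal activity, one of 0.25 (SE 0.11). DOK5, an adaptor that binds TrkB and TrkC, had a difference of -0.35 (SE 0.13) between MILK-IUGR and MILK-NBW piglets, with PCSK1N, the binding partner of PCSK1, at -0.22 (SE 0.09) and the opioid precursor PENK at -0.23 (SE 0.10). DUSP1, a phosphatase of MAP kinases that is induced by growth factors, had -0.19 (SE 0.08) within IUGR piglets, MILK minus VEG. For diet ADCYAP1, the neuropeptide PACAP, had 0.19 (SE 0.08), and for birth weight PTPN11 (SHP2), a phosphatase in Trk signalling, had 0.08 (SE 0.04). SPRY4, an inhibitor of receptor tyrosine kinase signalling, had 0.30 (SE 0.13) and the adaptor SHC3 0.19 (SE 0.09) in males against females. None of these was called, and all carried adjusted p values of 0.711 or more by edgeR.

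NTF4, another TrkB ligand, is named here with its values already seen. It averaged between 1.56 and 1.89 CPM in the groups and was not called in any comparison. The filter on low counts removed PLG, MMP9, EGR2, EGR3, NPAS4, NPY, CORT and SCGN, whose highest counts in any library were between 4 and 29.

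Groups took up at most 15.1% of the variance of any of the 7 genes, and some of the genes varied together from piglet to piglet. Over 33 piglets, with groups and sex removed from log2 CPM, 2 of the 21 pairs passed a permutation test of Pearson's r after Benjamini-Hochberg adjustment over the 21. NTRK2 and SORT1 had r = 0.78 (adjusted permutation p = 0.00021, n = 33) and Spearman's rho 0.75 (adjusted permutation p = 0.00042). Without the 2 piglets farthest out in NTRK2 r was 0.69. SORT1 was also the gene with the highest r with NTRK2 of all genes with a symbol. The lowest NTRK2 and the lowest SORT1 were in the same piglet, VEG-IUGR 201.

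The ligand NTF3 and its receptor NTRK3 had r = 0.58 (adjusted permutation p = 0.00441) and rho 0.55 (adjusted permutation p = 0.0111), with r = 0.54 without the 2 piglets farthest out in NTF3. MILK-NBW piglet 234 was the lowest in both, with 6.43 CPM of NTF3 and 37.7 CPM of NTRK3. The ligand BDNF and its receptor NTRK2 had r = 0.09 (rho 0.12, adjusted permutation p = 0.772 for r). BDNF and VGF, its induced transcript, had r = 0.42 (adjusted permutation p = 0.0974) and rho = 0.48 (adjusted permutation p = 0.032), and NTF3 and NTRK2 had r = -0.40 (adjusted permutation p = 0.0974) and rho = -0.47 (adjusted permutation p = 0.032), so these pairs passed by rank and not by r. All genes of a library share its scaling and its mixture of cells. The share of all genes that reached an r of at least 0.6 in size was 9.81% with NTRK3, 3.28% with SORT1, 2.12% with NTF3, 1.54% with NGFR, 1.18% with NTRK2, 0.59% with VGF and 0.30% with BDNF.

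**Figure D3:**
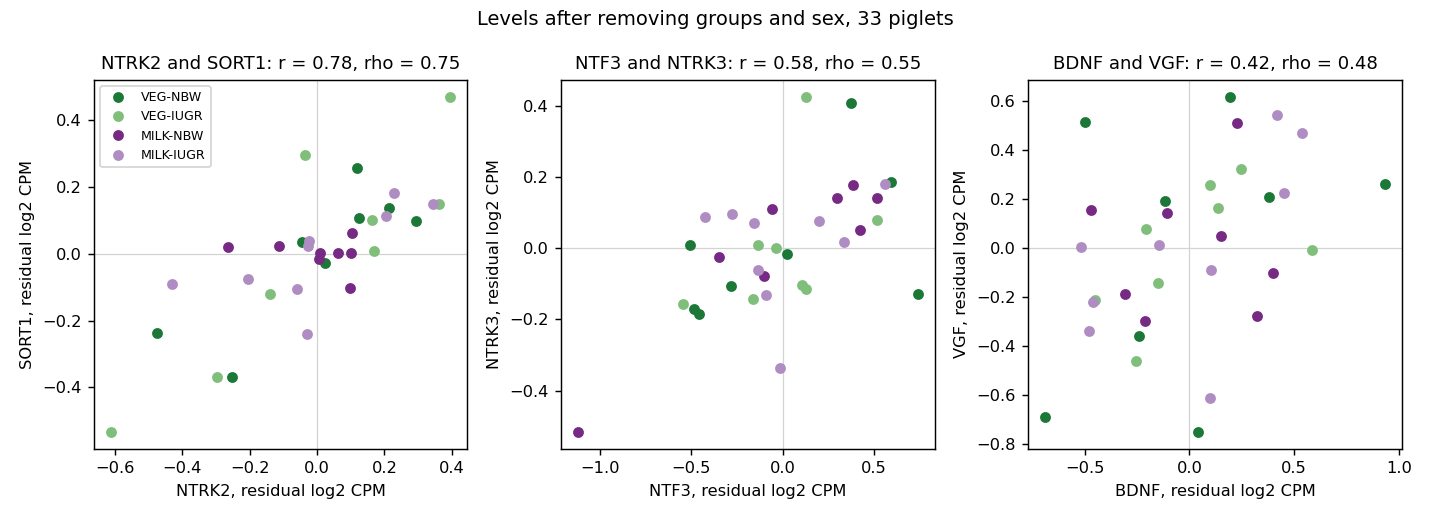
Residual log2 CPM, after groups and sex were removed, of NTRK2 against SORT1, NTF3 against NTRK3 and BDNF against VGF, each point 1 of 33 piglets coloured by group. NTRK2 and SORT1 lie along a line (r = 0.78); the piglet at the lower left of the middle panel is MILK-NBW 234.

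With the 3 left-out libraries the pairs changed. NTRK2 and SORT1 had r = 0.92 and NTF3 and NTRK3 r = -0.09 over 36 libraries, and 5 pairs passed. The relation of NTF3 and NTRK3 did not hold with those libraries in.

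The genes most like each of the 7 in this residual pattern, chosen as the 3 with the highest r over 33 piglets, were as follows. BDNF varied most closely with AVPI1 (r = 0.80), GADD45A (0.75), a stress-induced gene, and LDHA (0.75), a subunit of lactate dehydrogenase. NTF3 varied with the transcription factors TLX3 (0.84) and EBF1 (0.83) and with BICD2 (0.82), and NTRK3 with TMEM63C (0.90), SLC7A8 (0.89) and the ephrin receptor EPHA8 (0.88). NGFR was closest to GSE1 (0.87), FRMPD3 (0.82) and GLI2 (0.79), a transcription factor of the hedgehog pathway. After SORT1, NTRK2 was closest to the ubiquitin ligase MIB1 (0.75) and THSD7A (0.74). SORT1 was closest to OTUD7B (0.87), NIPAL4 (0.87) and the kinesin KIF13B (0.87), and VGF to SLC6A17 (0.83), a transporter of synaptic vesicles, CBARP (0.80) and EFR3B (0.79). These are descriptions without a test.

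Each gene was also set against the summed CPM of 14 lists of cell type markers, in an analysis added after the data had been seen. Of the 98 relations 19 passed the permutation test of r after adjustment over all 98. NTF3 and NTRK3 rose with the markers of granule neurons, with r = 0.72 (rho 0.73) and r = 0.74, each at the adjusted permutation p of 0.000196 that goes with 1e-05, the smallest p these 100000 permutations can give. Without the 2 piglets farthest out in the marker sum, r was 0.71 for NTF3 and 0.70 for NTRK3. NTF3 ran against Purkinje cell markers (r = -0.67) and interneuron markers (r = -0.61). With the 3 left-out libraries these values were -0.16 and 0.07, not past the test. The r of 0.74 between NTF3 and the list for brainstem and deep nuclei rests on SLC17A6, a vesicular glutamate transporter, since the other 4 genes of that list had medians of at most 0.29 CPM.

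NGFR followed the summed markers of granule progenitors, ATOH1, TOP2A, GLI1, BARHL1 and CCND2, with r = 0.77 (rho 0.74, adjusted permutation p = 0.000196). Without the 2 piglets farthest out in the marker sum r was 0.69. TOP2A and BARHL1 weigh most in that sum, with medians of 72.9 and 60.3 CPM. CCND2 had 34.2, ATOH1 8.17 and GLI1 6.44 CPM, and relations to each gene alone were not computed. The r of NGFR with granule neuron markers was -0.06, but 0.85 over all 36 libraries (adjusted permutation p = 0.00098). MILK-IUGR piglet 207 had the lowest NGFR of all, 10.8 CPM, and the lowest sum of granule progenitor markers, 139 CPM. Without this piglet the r of NGFR with that sum was 0.74 (adjusted permutation p = 0.000392).

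SORT1 rose with oligodendrocyte markers, with r = 0.73 (adjusted permutation p = 0.000196), with their progenitors (r = 0.64) and with astrocytes and Bergmann glia (r = 0.52). Without the 2 piglets farthest out in oligodendrocyte markers r was 0.68. NTRK2 rose with the same lists, at 0.57, 0.52 and 0.53. These sums weigh a few genes most. In the progenitor list OLIG1 and SOX10 had medians of 224 and 91.2 CPM, beside 31.1 for PDGFRA and 10.1 for CSPG4. In the astrocyte and Bergmann glia list GFAP had 4755 CPM, beside 56.8 for GDF10. Relations to single markers were not computed. SORT1 also had r = 0.52 with Schwann cell markers, whose sum was at most 10.2 CPM. NTRK3 ran against endothelial markers (r = -0.57), against interneuron markers (-0.45) and, with NTF3 (-0.49) and NGFR (-0.46), against astrocyte markers (-0.47). Without MILK-IUGR piglet 207 the astrocyte relations of NTRK3 (r = -0.40, adjusted permutation p = 0.1) and NGFR (r = -0.35, adjusted permutation p = 0.151) no longer passed. BDNF had r = -0.46 with the SLC17A6 list (adjusted permutation p = 0.0364) but did not pass by rank (rho -0.44, adjusted permutation p = 0.0523). Over all 36 libraries that r was -0.25, not past the test. NTRK3 with interneuron markers (rho -0.40, adjusted permutation p = 0.0766) and NGFR with astrocyte markers (rho -0.28, adjusted permutation p = 0.275) also did not pass by rank. Other relations passed by rank and not by r. NTRK2 with granule neuron markers had rho -0.53 (adjusted permutation p = 0.0121) and r = -0.40 (adjusted permutation p = 0.0778). NTRK3 with microglia markers had rho -0.48 (adjusted permutation p = 0.0312) and r = -0.44 (adjusted permutation p = 0.0582). VGF passed with no list. With the 3 left-out libraries 36 of 98 relations passed. NTRK3 with granule neurons had r = 0.83 and SORT1 with oligodendrocytes 0.46, both past the test. NGFR with granule progenitors also passed (0.71). However, NGFR had higher r there with granule neurons (0.85), mural cells (0.92) and Schwann cells (0.77), all past the test. The progenitor list thus did not stand apart for NGFR with those libraries in. SORT1 (0.61) and NTRK2 (0.57) with oligodendrocyte progenitors passed. NTF3 with granule neurons had 0.12 and NTRK2 with oligodendrocytes 0.37, which were not past the test. Nor were SORT1 with Schwann cells (0.12) and astrocytes (0.38), NTRK2 with astrocytes (0.22) and NTF3 with astrocytes (-0.06).

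**Figure D4:**
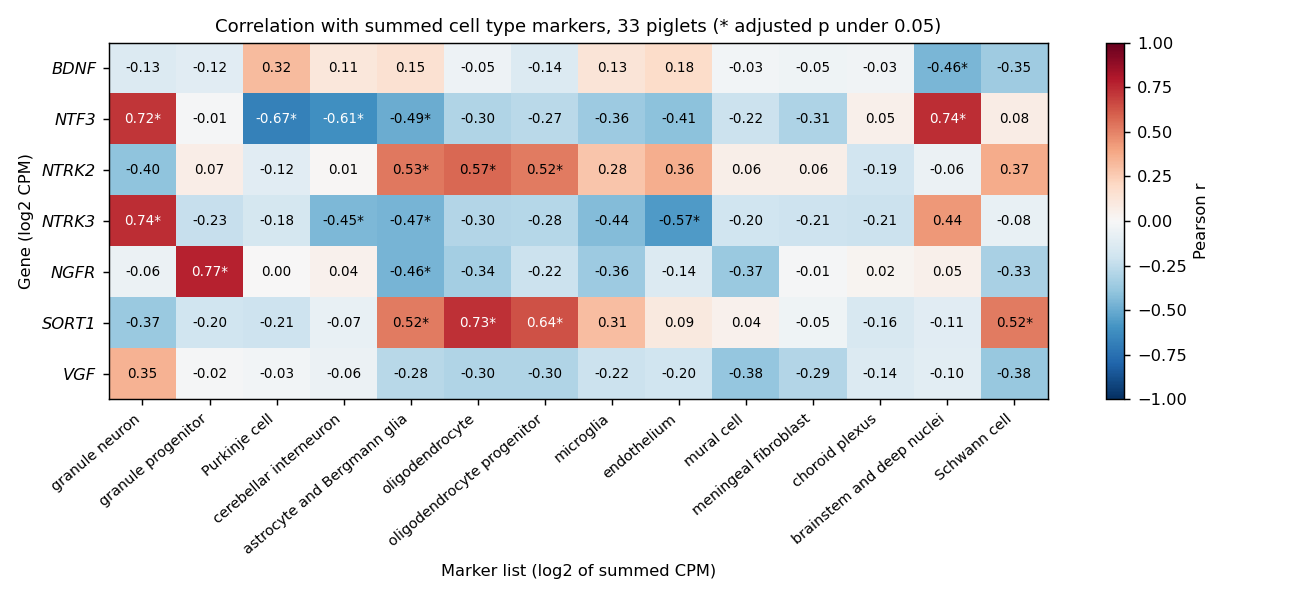
Pearson's r over 33 piglets between the log2 CPM of each of the 7 genes (rows) and the log2 summed CPM of 14 marker lists (columns), groups and sex removed; an asterisk marks an adjusted permutation p under 0.05 over 98 relations. NTRK3 is highest with granule neuron markers (0.74), NGFR with granule progenitors (0.77) and SORT1 with oligodendrocytes (0.73), and NTF3 has 0.72 with granule neurons and 0.74 with the brainstem and deep nuclei list.

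Levels in the 3 libraries left out of the tests are set here beside the range of the other 33, in CPM without TMM scaling. Those libraries held 14161702 (piglet 202), 7936202 (piglet 210) and 16934242 (piglet 213) counts on genes. NTRK2 was below the range of the 33 (88.8 to 192 CPM) in all 3, with 30.9 CPM in piglet 202, 53.6 in 210 and 16.9 in 213. VGF had 12.4, 48.5 and 102 CPM, against 55.7 to 155 in the 33. SORT1 had 60.9, 134.6 and 73.6 CPM, against 124 to 242. BDNF and NGFR had no count in piglet 210 and lay at 5.51 and 7.70 CPM in piglet 202. NTRK3 had 75.3 CPM in piglet 202, above the highest of the 33, and 14.5 CPM in piglet 210, below their lowest, while NTF3 had 4.94 and 29.9 CPM, the other way round. Of the 7 genes 5 were below the range and 1 above it in piglets 202 and 210 each, and 2 were below it in piglet 213. The library of piglet 210 had counts for 6513 genes in all, where each of the 33 had at least 18635. The share of all genes outside the range was not counted, so these counts cannot be read as particular to the 7.

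**Figure D5:**
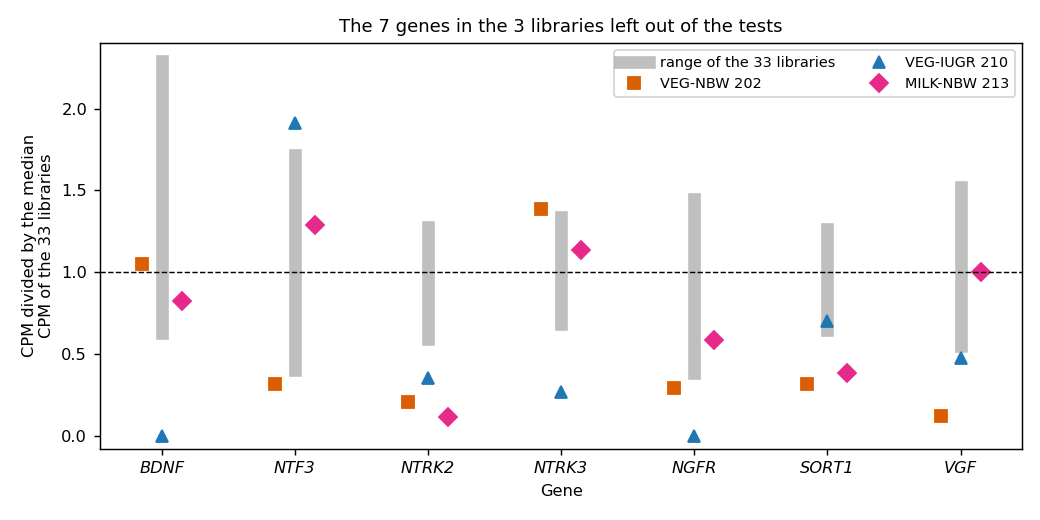
Level of each gene in the 3 left-out libraries, as CPM divided by the median CPM of the 33 libraries (linear axis from 0), with the range of the 33 as a grey bar. NTRK2 lies below the bar in all 3 libraries, and BDNF and NGFR are at 0 in VEG-IUGR piglet 210.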

How the data were processed

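Total RNA of piglet cerebellum was sequenced in paired 150-base reads on an Illumina NovaSeq. The authors deposited 1 table of whole-number counts per gene and piglet, which are not normalized. The submitters' processing notes name Trim Galore, HISAT2, HTSeq and DESeq2 and the genome Sscrofa11.1. Not given in the sources used here are tool versions, which annotation release was counted and with what strand setting. The 5 closing rows of each file, which name no gene, held 26.7% to 30.5% of all reads listed in the 33 libraries (43.6%, 64.3% and 31.5% in piglets 202, 210 and 213) and were kept out of library sizes and tests.

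Counts were normalised by TMM and filtered by filterByExpr (minimum count 10), which left 15356 genes, and tested with edgeR 4.0.16's quasi-likelihood test in R 4.3.3, with sex as a covariate and Benjamini-Hochberg adjustment over all genes tested. Diet and birth weight were fitted without their interaction. The interaction, the 4 pairs of groups and sex were fitted on the 4 group means. Intervals use the t distribution with 28 or 29 residual degrees of freedom. Co-variation used log2 CPM (prior count 2) less group and sex means, with 100000 permutations in Python 3.11.15 (scipy 1.17.1). The edgeR test of diet was tried on simulated counts with known changes, and the other tests were not. Alternatives were all 36 libraries, leaving out each library, DESeq2 1.42.0 with its size factors, limma 3.58.1 (voom with quality weights), other filters, no sex term and fits of single pairs. Positions are RefSeq gene spans on Sscrofa11.1, matched by symbol. Symbols were known for 47.1% of the identifiers.

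The members, gene lists and tests were chosen with earlier results of these data known. The 7 members were to be named throughout, with up to 4 pathway genes per comparison of the smallest unadjusted p and the 3 genes most like each member; some genes of these lists are not reported here. Matching of the left-out libraries was by the share of unassigned reads, and the study does not name them. Piglets are separate animals, but litter mates cannot be told apart here, so p-values treat all piglets as independent. Depth was even among the 33 libraries, and counting error at a mean BDNF level was 10.0%, against 1.70% for SORT1.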

Additional observations from a re-analysis of the deposited data

Results flagged for a closer look

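In 28 checks, of 7 genes in 4 groups of 8 or 9 piglets, 3 found a piglet that stood apart from its group on the log2 scale. The critical values are set to flag about 1 in 20 groups of normal values, so 1 or 2 flags would arise without any cause. That rate was not measured over all genes here, and the checks share piglets, so they are not independent. NTRK3 was lowest in MILK-NBW piglet 234, with 37.7 CPM, and the gap to the next piglet was 0.636 of the range of the group. This piglet also had the lowest NTF3 of all 33, with 6.43 CPM. NTRK3 was highest in VEG-IUGR piglet 209, with 69.1 CPM, a gap of 0.589 of the range. SORT1 was lowest in MILK-NBW piglet 218, with 185 CPM, a gap of 0.568 of a range of only 185 to 205 CPM.

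Of the 3 libraries that entered no test, 2 held a gene of this family above every one of the 33 others: NTF3 stood at 29.863 CPM (237 counts) in VEG-IUGR piglet 210, where the others reached 26.9 CPM, and NTRK3 at 75.273 CPM (1066 counts) in VEG-NBW piglet 202, where the others reached 72.5 CPM. How many of all genes lay above the 33 in these libraries was not counted.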

How the results depend on the processing

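Each of the 7 genes stayed uncalled under each alternative run, with adjusted p values of 0.458 or more, and so did the 97 pathway genes. What changed were signs of differences near 0. With all 36 libraries the log2 difference became 0.0075 for BDNF under diet, 0.0567 for NTRK2, -0.111 for NTRK3 and 0.0027 for VGF under birth weight, and -0.245 for NTF3, 0.0831 for NTRK2 and 0.0002 for SORT1 in the interaction. With limma voom it became 0.11 for BDNF, -0.0288 for NGFR and 0.0842 for VGF under birth weight, -0.0462 for NTF3 in the interaction and 0.0186 for BDNF between the sexes; the cause was not tested. Leaving out 1 library at a time, diet gave -0.117 to 0.022 for BDNF, -0.0083 to 0.0923 for NGFR and -0.0141 to 0.078 for VGF. Birth weight gave -0.0755 to 0.0875 for BDNF, -0.0152 to 0.0857 for NGFR, -0.0693 to 0.0034 for NTRK2, -0.0268 to 0.0365 for NTRK3, -0.0254 to 0.0508 for SORT1 and -0.0778 to 0.0245 for VGF. The interaction gave -0.0954 to 0.109 for NTF3, -0.121 to 0.0074 for NTRK2 and -0.11 to 0.0247 for SORT1, and 0.54 to 0.82 for BDNF, with unadjusted p from 0.00758 to 0.0477.

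Over all genes, the counts called went from 0 to 2 in the interaction with DESeq2. For MILK against VEG within NBW they went from 0 to 2 with DESeq2, 1 with DESeq2 without sex and 1 with limma voom, and lay between 0 and 1 without single libraries (1 without piglet 207). Within MILK piglets they went from 0 to 2 with DESeq2 and to 1 with its size factors, without sex in DESeq2 or edgeR, with limma voom and with at least 10 counts in every library, and lay between 0 and 1 without single libraries (1 without piglets 200, 207, 209, 220 or 226). Between the sexes they went from 25 to 7 with at least 10 counts in every library, which tests fewer genes. The number of all genes with an unadjusted p under 0.05, set beside the counts of members, also moved: from 654 for diet to 190 with all 36 libraries and 1425 with no filter on low counts, and from 958 within MILK piglets to 59 and 1567 under the same settings. Over the alternatives it ran from 264 to 1050 for birth weight, 834 to 1623 for the interaction, 166 to 1148 for sex, 118 to 1659 within NBW, 500 to 1245 within IUGR and 258 to 1356 within VEG piglets. With all 36 libraries 5 pairs of members passed in place of 2, and the r of NTF3 and NTRK3 was -0.0857. Of the relations to marker lists 36 passed in place of 19, with r = 0.0744 for NTF3 and interneurons and 0.108 for NTRK3 and endothelium. How many pairs and relations passed thus depends on whether the 3 libraries are left out.

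The depth limits BDNF most, with 62 to 227 counts per library. Group sizes of 8 or 9 left intervals of the interaction no narrower than that of NTRK3, -0.12 to 0.43. No paired analysis was possible because each piglet has a number of its own, shared with no other group.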
